A study of Mus musculus and Homo sapiens with 180 samples.

Results

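The experiment described here is the response of MOLM13 control cells to the DOT1L inhibitor SGC0946 (DOT1Li). MOLM13 is a human acute myeloid leukaemia line that carries an MLL-AF9 fusion and an internal tandem duplication of FLT3. The 6 libraries of the comparison, of 180 in the series, were the 3 MOLM13 control libraries in 5 μM SGC0946 and the 3 in DMSO, both labelled 72 h. The control cells carried Cas9 and a control sgRNA, whose columns are named NT, and were a drug-selected polyclonal population and not a clone. They share Cas9 and the MLL fusion with every other MOLM13 group compared below. Those were control cells in 500 nM of the Menin inhibitor VTP50469 (MENi) for 48 h and PCGF1 KO cells in DMSO or SGC0946. The fit of all 27 MOLM13 libraries also held PCGF1 KO cells in VTP50469 and BCOR KO cells in DMSO, SGC0946 or VTP50469. No values are given for those groups. MV4;11 control cells, a human leukaemia line with an MLL-AF4 fusion, served as a second line, with 3 libraries in SGC0946 and 3 in DMSO at the same dose and time. Their columns were taken to be those named Safe3, a match inferred from the column names on which every MV4;11 value rests. RNA was read from the polyadenylated 3′ end of transcripts, so that a count does not scale with transcript length and levels were compared for 1 gene at a time.

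DOT1L is the methyltransferase of lysine 79 of histone H3, a mark laid down over the bodies of transcribed genes. MLL fusion proteins bind partners that also bind DOT1L or the machinery of transcript elongation, and their target genes, among them the HOXA genes and MEIS1, carry high levels of the mark and hold leukaemic cells in an immature, self-renewing state. Menin, the other drug target, tethers MLL to chromatin. Maturing granulocytes and monocytes switch off HOXA9 and MEIS1 and switch on granule proteins, the phagocyte oxidase, integrins and pattern receptors.

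The 6 libraries held between 5127116 and 6027321 counts on genes, at which 3 counts, the limit that a count of 0 allows, came to 0.498 to 0.585 CPM, the counts of a gene scaled to the total of its library. Such limits cover counting error only. DMSO replicate 2 stood apart. Reads that did not align made up 22.7% of that library and 11.1% to 13.1% of the other 5, and its root mean square log2 distance from the other DMSO libraries was 0.463, compared with 0.297 and 0.307 for DMSO replicates 1 and 3 and 0.206 to 0.220 among SGC0946 libraries. Main counts are therefore also given without it. Ribosomal protein genes took 23.5% to 24.5% of counts in DMSO and 25.3% to 25.8% in SGC0946, and mitochondrial transcripts 6.26% to 7.48% and 6.92% to 8.31%. Of the defining myeloid genes, CD33, SPI1, PTPRC, FUT4, MPO, LYZ and FLT3 were detected, whereas CEBPA was at 0 in all 6 libraries. Of 10 lymphoid genes 2 passed the filter, with a summed level of 2.84 to 6.70 CPM in DMSO and 6.92 to 11.4 CPM in SGC0946 that was nearly all CD3D, of 10 epithelial and fibroblast genes 3 passed, at 0.327 to 2.81 and 2.80 to 2.99 CPM, and of 12 erythroid and platelet genes none. What part these play in the results was not tested. In bulk RNA, fewer cells of a type and less RNA per cell cannot be told apart. Nothing in the labels says that the replicates were separate cultures, while a legend of the paper that covers this treatment gives 3 biological replicates. The p-values measure the spread between libraries, which may be technical. That spread was estimated over all 27 MOLM13 libraries, those of knockout cells included, and not over these 6 alone.

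Stretches of 150 bases, each ending 1 base before the annotated start of transcription, show the promoters of 3 genes that fell and 1 gene that rose. They are printed 5′ to 3′ on the strand of the gene from GRCh38, with every CG dinucleotide in capitals so that CG content can be read. MEIS1 and HOXA9 belong to the MLL fusion target list and MPO to the primary granule list, while EFNA5 belongs to neither. The first 3 belong to genes lowered by SGC0946.
MEIS1 (chr2:66434975-66435124, plus strand): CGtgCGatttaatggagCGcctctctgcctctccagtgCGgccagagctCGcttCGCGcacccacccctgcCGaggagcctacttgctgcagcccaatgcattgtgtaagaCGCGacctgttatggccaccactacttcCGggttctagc
HOXA9 (chr7:27165538-27165687, minus strand): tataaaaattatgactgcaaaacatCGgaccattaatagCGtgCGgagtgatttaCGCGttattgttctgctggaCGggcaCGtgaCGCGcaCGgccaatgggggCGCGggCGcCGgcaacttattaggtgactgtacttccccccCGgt
EFNA5 (chr5:107670938-107671087, minus strand): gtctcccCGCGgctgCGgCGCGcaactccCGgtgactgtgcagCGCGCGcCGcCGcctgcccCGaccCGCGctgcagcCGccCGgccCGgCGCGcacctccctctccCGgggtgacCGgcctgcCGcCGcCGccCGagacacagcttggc
The next belongs to a gene raised by SGC0946.
MPO (chr17:58280936-58281085, minus strand): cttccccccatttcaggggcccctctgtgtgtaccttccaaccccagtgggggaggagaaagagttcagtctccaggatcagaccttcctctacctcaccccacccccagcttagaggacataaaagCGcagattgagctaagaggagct
None of these stretches overlapped an annotated exon. The 3 promoters of lowered genes held 11, 15 and 25 CG dinucleotides in the order printed, and that of MPO held 1. Over 300 bases, from 250 before to 50 after the start, the median was 28 CG dinucleotides for the 10267 tested genes with such a start. It was 32.5 for the 20 MLL fusion targets that fell, and 5, with quartiles of 2 and 7, for the 25 genes of the granule and neutrophil lists that rose. All 778 raised genes had a median of 25 and all 650 lowered genes one of 29, so the contrast was that of these lists rather than of every gene that moved. The gene lists are described below.

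Of 12140 genes tested, 1578 (13.0%) changed between SGC0946 and DMSO, 878 (7.23%) upwards and 700 (5.77%) downwards. The test was edgeR's quasi-likelihood F test, whose p-values were adjusted by the Benjamini-Hochberg method over every gene tested. A call needed an adjusted p below 0.05, and every adjusted p given here comes from that procedure. Increases were larger than decreases. The raised genes had a median log2 fold change of 0.74 and 310 of them (35.3%) passed 1, while the lowered genes had a median of −0.48 and 99 (14.1%) passed −1. The medians were the same when genes with 3 counts or fewer in a group were set to their bound. Raised genes also began lower, with a median of 17.97 CPM in DMSO for protein-coding genes, compared with 70.9 CPM for lowered genes and 22.9 CPM for all. Calling itself shapes both contrasts. A fall can be called only from a level well above 0, and genes with low counts need a larger change to be called. The length of the gene did not separate them, since the median span was 33.3 kb for raised, 31.1 kb for lowered and 33.2 kb for all protein-coding genes. Values of the 3 SGC0946 libraries lay entirely above those in DMSO for 844 of the 878 raised genes (96.1%) and entirely below for 650 of the 700 lowered genes (92.9%), where 13.9% and 12.1% of all genes tested were separated in those directions. Without DMSO replicate 2 the calls were 771 upwards and 617 downwards. Scaling by library size alone gave 724 upwards and 927 downwards, and moved the median of all genes to −0.041, so the balance of both directions rests on the scaling.

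DOT1L, which encodes the enzyme that the drug inhibits, was itself lower. It stood at 48.7, 49.7 and 52.4 CPM in the DMSO libraries and 38.9, 38.7 and 40.8 CPM in the SGC0946 libraries, which did not overlap (log2 fold change −0.35, SE 0.10, adjusted p = 0.0192). The call was lost without DMSO replicate 3 (adjusted p = 0.059), SGC0946 replicate 1 (0.0715) or SGC0946 replicate 2 (0.0807). A transcript level does not report on the enzyme's activity, and the mark was not measured in these files. Among 14 tested genes of DOT1L and the elongation complexes, 3 (21.4%) fell, none rose, and the median log2 fold change was −0.11, where 5.77% of all genes fell. The count was 1 without SGC0946 replicate 1 and 0 with only the libraries compared. The other members that fell were AFF1, an elongation factor and MLL fusion partner, and NPM1, a nucleolar chaperone. AFF1 went from 42.9 ± 4.82 to 30.4 ± 3.12 CPM (SD, n = 3; log2 fold change −0.50, SE 0.13, adjusted p = 0.0101), a call lost without SGC0946 replicate 1 (adjusted p = 0.0678). NPM1 went from 2255 ± 445 to 1824 ± 59.6 CPM, and that call was lost without DMSO replicate 2 (adjusted p = 0.0958) or SGC0946 replicate 3 (0.0607).

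Genes that MLL fusion proteins are known to drive fell together. Of 36 tested members of the list, 20 (55.6%) fell and 4 (11.1%) rose, with a median log2 fold change of −0.56, where 5.77% of all genes fell. Part of that list was named by the study on these samples and is not independent evidence of its direction. MEIS1, the homeobox cofactor of HOXA9, was at 23.2, 24.5 and 19.1 CPM in DMSO and 2.99, 5.45 and 4.38 CPM in SGC0946. Every SGC0946 library lay far below the lowest DMSO library, and the log2 fold change of MEIS1 was −2.37 (SE 0.22, adjusted p = 8.23e-09). MEF2C, a transcription factor of immature and lymphoid-primed progenitors, fell from 209.7, 247 and 196 CPM to 54.9, 46.4 and 54.96 CPM. Its log2 fold change was −2.06 (SE 0.09, adjusted p = 4.32e-15), the lowest p of any lowered gene. SATB1, a chromatin organiser, fell from 169, 216 and 174 CPM to 57.4, 61.1 and 55.3 CPM (−1.68, SE 0.10, adjusted p = 4.17e-13). SOCS2, a brake on cytokine receptor signalling, fell from 21.6, 20.1 and 17.2 CPM to 3.55, 3.76 and 4.03 CPM (−2.37, SE 0.20, adjusted p = 1.63e-09). No library overlapped in any of these genes, and apart from MEIS1 the SGC0946 libraries lay close together. Lack of overlap was a condition for genes named by their lowest p, so in those it is no separate support.

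The HOXA cluster on chromosome 7 is the classical target locus. Of 10 tested genes of the cluster 8 (80.0%) fell and none rose, with a median of −1.29, where 5.77% of all genes fell. The summed level of the 10 went from 187, 207 and 174 CPM to 78.5, 79.3 and 85.4 CPM. The 8 genes formed an unbroken run of tested genes from HOXA3 to HOXA13 (chr7:27106184-27200091). HOXA9, the homeodomain factor whose promoter is printed above, was at 96.6, 97.6 and 82.3 CPM in DMSO and 29.2, 37.4 and 38.5 CPM in SGC0946 (−1.39, SE 0.11, adjusted p = 4.41e-10). HOXA10 was at 28.7, 41.9 and 25.6 CPM and then 15.1, 14.1 and 14.9 CPM (−1.12, SE 0.15, adjusted p = 2.84e-06). The annotated spans of HOXA9 and HOXA10 overlap, so reads could be shared between them in the counting. HOXA11 had 16.8, 27.9 and 20.4 CPM in DMSO and 6.73, 6.01 and 5.60 CPM in SGC0946 (−1.82, SE 0.21, adjusted p = 4.14e-07). In all 3 genes the groups were apart, and DMSO replicate 2 was the highest library. The largest fitted changes of the 8 were in the sparsely counted HOXA3 and HOXA5. HOXA3 fell from 3.82 ± 1.22 to 0.296 ± 0.362 CPM (SD, n = 3; −3.54, SE 0.54, adjusted p = 3.03e-05) and HOXA5 from 5.75 ± 0.992 to 0.608 ± 0.202 CPM (−3.19, SE 0.52, adjusted p = 8.24e-05). HOXA13 fell from 6.69 ± 0.983 to 2.92 ± 0.276 CPM (−1.18, SE 0.26, adjusted p = 0.00260). The antisense transcripts HOXA10-AS and HOXA11-AS were also called lower, but the strand setting of the counting is not stated and their reads cannot be told apart from those of their partners. The call for HOXA10-AS was lost without DMSO replicate 1 (adjusted p = 0.09) or 3 (0.078) or SGC0946 replicate 2 (0.0867) or 3 (0.221). HOTAIRM1, a non-coding gene at the opposite end of the cluster, had 10.1, 7.02 and 12.3 CPM in DMSO and 14.2, 10.9 and 14.0 CPM in SGC0946, overlapping values that did not pass the test (adjusted p = 0.147).

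**Figure D1:**
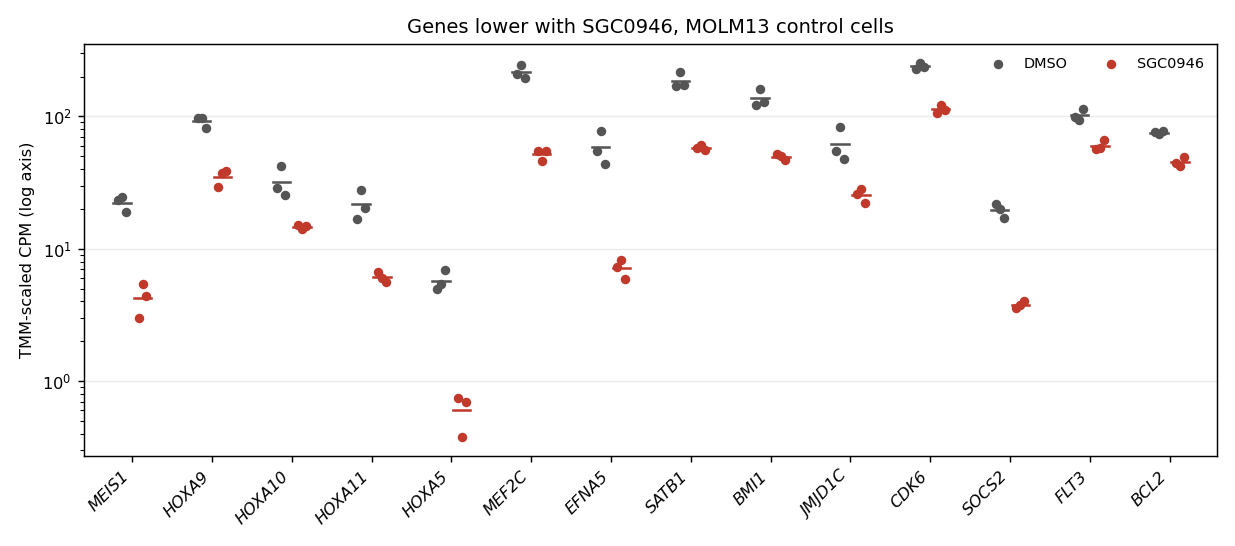
Levels of 14 genes that fell with SGC0946 in MOLM13 control cells, as TMM-scaled CPM on a log axis. Points are single libraries (3 in DMSO, grey, and 3 in SGC0946, red) and bars are means; in every gene shown the 3 SGC0946 points lie below the 3 DMSO points, with MEIS1 between 2.99 and 5.45 CPM after 19.1 to 24.5 CPM in DMSO.

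A second run of lowered neighbours lay on chromosome 10 (chr10:21490272-22331484), where 5 of 7 tested genes fell with a median of −1.47. It holds BMI1, a Polycomb protein of stem cell self-renewal, which fell from 122, 161 and 128 CPM to 51.6, 49.8 and 47.1 CPM (−1.47, SE 0.10, adjusted p = 1.05e-11). MIR1915HG, a non-coding host gene, went from 12.9, 12.8 and 13.6 CPM to 1.495, 1.32 and 0.700 CPM (−3.47, SE 0.34, adjusted p = 1.94e-08). Both genes were clear of overlap, and the other 3, which were looked up after their values were seen, were SKIDA1 (−1.97), DNAJC1 (−1.22) and COMMD3 (−0.70). The demethylase gene JMJD1C and its divergent neighbour REEP3, also on chromosome 10, fell by like amounts. JMJD1C went from 54.4, 83.8 and 47.9 CPM to 25.8, 28.4 and 22.2 CPM (−1.28, SE 0.19, adjusted p = 1.79e-05). REEP3 went from 78.5, 92.4 and 81.8 CPM to 32.7, 33.6 and 32.9 CPM (−1.35, SE 0.11, adjusted p = 4.38e-10). Their spans overlap by less than 1 kb at the start, which lies away from the 3′ ends that were read. With gaps of at most 500 kb and at least 3 called genes, 60 runs of raised and 40 runs of lowered genes were found in all.

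Further lowered genes were EFNA5, ZNF521, SHOX2, CDK6, FLT3 and BCL2. EFNA5, a ligand of Eph receptors, showed the largest decrease of the genes at 10 CPM or more chosen by p, from 54.6, 77.2 and 43.5 CPM to 7.29, 8.27 and 5.95 CPM (−3.02, SE 0.19, adjusted p = 3.15e-12). ZNF521, a zinc finger repressor of progenitors, fell from 58.8, 79.2 and 56.5 CPM to 20.2, 18.8 and 19.6 CPM (−1.73, SE 0.14, adjusted p = 8.81e-10). SHOX2, a homeobox gene outside the HOXA cluster, fell from 179.7, 229 and 153 CPM to 43.2, 37.2 and 39.9 CPM (−2.22, SE 0.17, adjusted p = 3.13e-10). In each of these the SGC0946 libraries lay close together and well below DMSO. CDK6, a G1 kinase, fell from 239.9 ± 13.6 to 114 ± 8.14 CPM (SD, n = 3; −1.08, SE 0.09, adjusted p = 2.77e-09). The receptor tyrosine kinase FLT3, which is mutated in this line, fell from 102 ± 9.86 to 60.2 ± 5.65 CPM (−0.76, SE 0.09, adjusted p = 7.49e-07). The survival gene BCL2 fell from 75.6 ± 2.18 to 45.4 ± 3.60 CPM (−0.73, SE 0.09, adjusted p = 5.95e-07). Of the list's 4 raised members, RUNX1 rose from 57.2 ± 4.12 to 76.0 ± 9.60 CPM (0.41, adjusted p = 0.0135), a call lost without SGC0946 replicate 3 (adjusted p = 0.112). LPXN, an adaptor of leukocyte adhesion, rose from 31.4 ± 7.79 to 50.1 ± 4.44 CPM (0.67, adjusted p = 5.78e-04). ZEB2 was at 53.4 ± 4.55 and 54.2 ± 4.92 CPM and MSI2 at 34.5 ± 2.67 and 32.3 ± 0.650 CPM, with adjusted p of 0.949 and 0.723. Of the Polycomb list, which does not hold BMI1, 3 of 19 tested genes fell and 1 rose. BCOR, a subunit of PRC1.1, was at 55.3, 45.3 and 56.03 CPM in DMSO and 36.6, 44.2 and 38.7 CPM in SGC0946 (−0.39, SE 0.09, adjusted p = 0.00454). PCGF1 was at 7.74 ± 0.626 and 8.72 ± 1.28 CPM and did not pass (adjusted p = 0.715). The share of the Polycomb list that fell is read against 5.77% of all genes, and the count was 1 without SGC0946 replicate 1 and 0 with only the libraries compared. EZH2 lost its call without DMSO replicate 2 (adjusted p = 0.19) or SGC0946 replicate 1 (0.098) or 3 (0.0731), and KDM2B without SGC0946 replicate 1 (0.12).

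Genes of maturing granulocytes moved the other way. Of 19 tested genes of the neutrophil maturation list 16 (84.2%) rose and none fell, with a median log2 fold change of 1.67 that was the same with bounds for the 3 genes at 3 counts or fewer in DMSO. Of 17 primary granule genes 9 (52.9%) rose and 1 fell, with a median of 0.45. For all genes the share that rose was 7.23% and the median 0.0006. Without DMSO replicate 2 the raised members numbered 15 and 9. Genes could enter the test through any MOLM13 library, so the 3 maturation genes near 0 in DMSO could be called only upwards. They add to the share that rose by the way they were chosen. With the filter applied in the 6 libraries compared, 15 of 18 maturation genes rose. SLPI, a secreted inhibitor of neutrophil elastase, had the lowest p of all genes and rose from 8.51, 7.02 and 8.66 CPM to 78.1, 68.6 and 79.3 CPM (3.21, SE 0.11, adjusted p = 8.38e-18). CYBB, the catalytic subunit of the phagocyte oxidase, rose from 36.5, 46.3 and 30.2 CPM to 259, 235 and 234 CPM (2.69, SE 0.11, adjusted p = 9.31e-16). CHI3L1, a chitinase-like protein of specific granules, rose from 79.6, 96.4 and 81.7 CPM to 341, 360.3 and 367 CPM (2.05, SE 0.10, adjusted p = 8.24e-15). The lowest treated library exceeded the highest DMSO library by more than 3 times in all 3 genes. The calgranulins started from almost nothing, S100A9 with 1 count in the 3 DMSO libraries together and 84 in SGC0946, and S100A8 with 3 and 96. Their ratios were 85.9 (95% exact counting interval 15.0 to 3432) and 32.7 (10.9 to 161). MMP25, a leukocyte surface protease, rose from 1.42 ± 0.483 to 10.4 ± 0.590 CPM (SD, n = 3; 2.84, SE 0.26, adjusted p = 5.51e-09), and ITGAM, the CD11b integrin chain, from 2.48 ± 0.543 to 6.47 ± 0.264 CPM (1.36, SE 0.33, adjusted p = 0.00527). CSF3R, the receptor of granulocyte colony-stimulating factor, rose from 60.04 ± 8.16 to 112 ± 5.21 CPM (0.90, SE 0.11, adjusted p = 8.75e-07).

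Several other genes of the secondary, or specific, granules of later neutrophils had few or no counts, unlike CHI3L1 above. Of the 38 genes of the maturation list 19 did not pass the filter, and LCN2, MMP8, CEACAM8 and OLFM4 had no count in any of the 6 libraries. LTF had 0 counts in DMSO and 1 in SGC0946, and CAMP 1 and 19. A count near 0 need not mean a low level in these tables, since CDK4, a kinase of dividing cells, had 2 counts in each group and CYP51A1, of sterol synthesis, had 0. Among the primary granule proteins, MPO, the myeloperoxidase, rose from 22.0, 22.5 and 22.4 CPM to 95.3, 107 and 106 CPM (2.20, SE 0.11, adjusted p = 6.42e-14). MS4A3, a membrane protein of granulocyte and monocyte progenitors, rose from 46.8, 43.5 and 45.1 CPM to 192, 203 and 190.4 CPM (2.11, SE 0.13, adjusted p = 1.56e-12). The DMSO values of both genes lay close together, DMSO replicate 2 included. LYZ, the lysozyme gene, rose from 1.42, 1.003 and 0.327 CPM to 8.97, 10.9 and 11.2 CPM (3.49, SE 0.41, adjusted p = 5.07e-07), and RNASE2, a ribonuclease of granules, from 524, 431 and 509 CPM to 848, 830.3 and 867 CPM (0.80, SE 0.06, adjusted p = 7.28e-10). The serine protease genes of the same granules did not pass the test. ELANE was at 872, 1177 and 703 CPM in DMSO and 1084, 847 and 913 CPM in SGC0946 (adjusted p = 0.890), and PRTN3 at 1015 ± 326 and 1052 ± 36.7 CPM (adjusted p = 0.885). AZU1 was at 59.2, 315 and 61.7 CPM in DMSO, with the high value in replicate 2, and at 94.4, 64.1 and 65.1 CPM in SGC0946 (adjusted p = 0.128). CST7, which encodes cystatin F, was the member that fell, from 27.1 ± 5.06 to 18.5 ± 1.47 CPM (−0.55, SE 0.15, adjusted p = 0.0133), a call lost without DMSO replicate 2 (adjusted p = 0.0958) or SGC0946 replicate 1 (0.0584) or 2 (0.0538).

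Monocyte genes rose in part. Of 25 tested genes 12 (48.0%) rose and 1 fell, with a median of 0.68, and 14 rose and 1 fell without DMSO replicate 2. Of all genes 7.23% rose and 5.77% fell. ANXA1, an anti-inflammatory annexin, rose from 12.4, 15.2 and 11.8 CPM to 80.6, 64.5 and 61.4 CPM (2.39, SE 0.22, adjusted p = 4.67e-09). CCR2, the chemokine receptor of classical monocytes, rose from 61.9, 61.8 and 56.03 CPM to 125, 151 and 141 CPM (1.21, SE 0.12, adjusted p = 1.15e-08). FGL2, a fibrinogen-like protein of macrophages, rose from 2.66, 4.61 and 1.96 CPM to 15.0, 17.9 and 15.9 CPM (2.42, SE 0.25, adjusted p = 7.02e-08). None of these overlapped. AIF1, a calcium-binding protein of macrophages, rose from 244 ± 15.5 to 470.2 ± 32.3 CPM (0.95, SE 0.08, adjusted p = 2.97e-09), and the endotoxin receptor TLR4 from 9.97 ± 2.07 to 30.1 ± 2.89 CPM (1.58, SE 0.18, adjusted p = 4.07e-07). MS4A7 fell from 69.8 ± 5.61 to 50.9 ± 3.64 CPM (−0.45, SE 0.10, adjusted p = 0.00262). The defining monocyte genes were near the limit of detection. CD14 had 3 counts in DMSO and 10 in SGC0946, VCAN 1 and 8, and FCN1 and CD163 none.

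**Figure D2:**
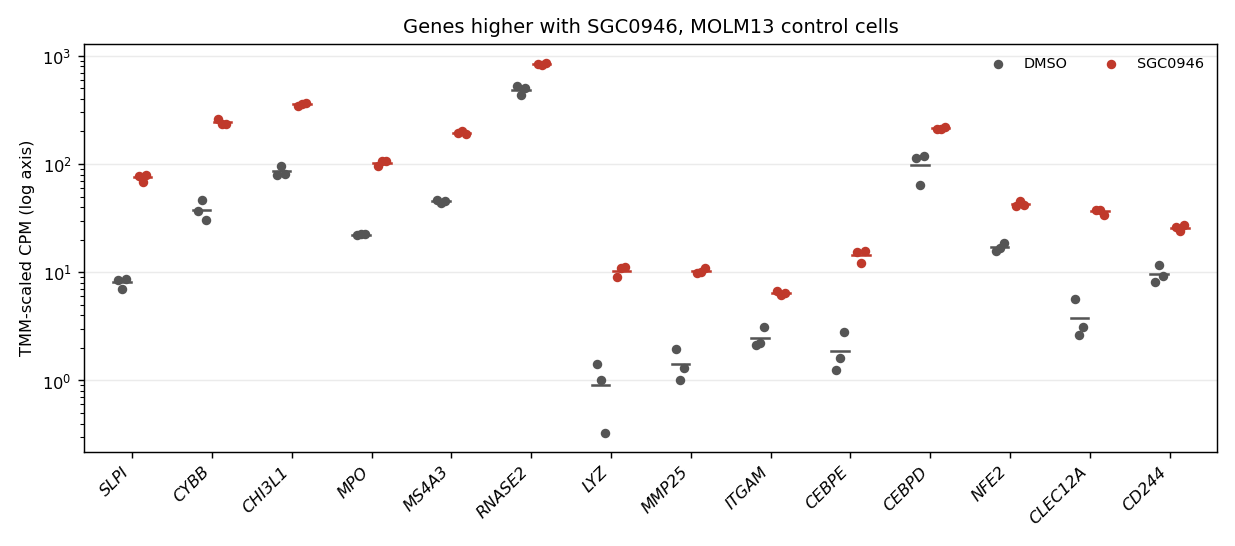
Levels of 14 genes that rose with SGC0946 in MOLM13 control cells, as TMM-scaled CPM on a log axis, with points for single libraries (3 in DMSO, grey, and 3 in SGC0946, red) and bars for means. The groups are apart in every gene shown, from RNASE2, at 431 to 524 CPM and then 830.3 to 867 CPM, to SLPI, at 7.02 to 8.66 CPM and then 68.6 to 79.3 CPM.

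Among 41 tested myeloid transcription factors 7 (17.1%) rose and 4 (9.76%) fell, a split in which most genes of the list (30) were not called. Of all genes 7.23% rose and 5.77% fell. Over the alternative fits 3 to 7 of the factors rose and 3 to 8 fell. CEBPE, which drives granulocyte maturation past the promyelocyte, rose from 1.24, 1.60 and 2.78 CPM to 15.3, 12.2 and 15.8 CPM (2.91, SE 0.26, adjusted p = 3.16e-09). CEBPD, a related factor, rose from 114, 64.4 and 119 CPM to 212, 213 and 219.8 CPM (1.11, SE 0.13, adjusted p = 4.11e-07), with DMSO replicate 2 the lowest library. NFE2 rose from 15.8, 16.8 and 18.6 CPM to 40.7, 45.3 and 42.01 CPM (1.32, SE 0.12, adjusted p = 1.08e-08). All 3 factors were clear of overlap. SPI1, which encodes PU.1, was at 33.4 ± 5.47 and 33.5 ± 2.84 CPM (adjusted p = 0.997), and MYB, a factor of progenitor growth, fell from 447 ± 68.3 to 364 ± 4.53 CPM (−0.30, SE 0.08, adjusted p = 0.0111), a call lost without DMSO replicate 2 (adjusted p = 0.0865). Of 23 tested surface proteins of leukaemia cells 8 (34.8%) rose and 2 (8.70%) fell, beside the same shares of all genes. Over the alternative fits 4 to 10 rose and 1 to 3 fell. CLEC12A, a lectin carried by leukaemic and myeloid cells, rose from 5.67, 2.61 and 3.10 CPM to 37.8, 37.96 and 33.6 CPM (3.25, SE 0.22, adjusted p = 2.54e-11), and CD244 from 8.15, 11.6 and 9.31 CPM to 26.0, 24.2 and 27.3 CPM (1.42, SE 0.16, adjusted p = 2.94e-07). CD33 was at 55.6 ± 5.77 and 61.7 ± 4.03 CPM and did not pass (adjusted p = 0.288).

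CLEC12A lies in a run of 3 raised genes on chromosome 12 (chr12:9951316-10191804) with CLEC1B and TMEM52B, and it overlaps CLEC1B on the opposite strand, so their reads may not be fully separated. The serpin genes SERPINB2, SERPINB10 and SERPINB8 formed another such run elsewhere, of which SERPINB8 lost its call without DMSO replicate 3 (adjusted p = 0.108) or SGC0946 replicate 1 (0.0635) or 3 (0.0702). SERPINB10, a myeloid protease inhibitor, rose from 0.709, 0.401 and 0.163 CPM to 18.7, 19.4 and 14.7 CPM (5.32, SE 0.38, adjusted p = 4.44e-11). SERPINB2, an inhibitor of plasminogen activation, had no count in DMSO and 157 counts in SGC0946, and was at least 53.5-fold higher against a floor of 3 counts over the group. Other strongly raised genes lay outside these loci. TNFSF13B, the B cell survival factor BAFF, rose from 141 ± 9.52 to 304 ± 14.6 CPM (SD, n = 3; 1.11, SE 0.07, adjusted p = 6.39e-12). PRAM1, an adaptor of neutrophil signalling, rose from 10.8 ± 0.487 to 52.8 ± 6.77 CPM (2.28, SE 0.13, adjusted p = 2.35e-13). The nuclear receptor NR2F2, not a gene of mature myeloid cells, rose from 0.482 ± 0.124 to 6.56 ± 1.22 CPM (3.71, SE 0.43, adjusted p = 4.82e-07). RPL24P6, called higher, and BOLA2B, called lower, are near-identical copies of other genes, so that their counts are uncertain, and BOLA2B ranged from 3.72 to 37.7 CPM within DMSO. The call for RPL24P6 was lost whichever of the 6 libraries was left out (adjusted p = 0.0505 to 0.125), and that for BOLA2B without DMSO replicate 2 (adjusted p = 0.0673), SGC0946 replicate 1 (0.0842), replicate 2 (0.0505) or replicate 3 (0.0655).

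Promoters of the raised granule and neutrophil genes were searched for the letters TTGCNNAA, a C/EBP binding pattern, on both strands. The pattern was found in 6 of 25 (24.0%), and in 6.55% of all 10267 promoters of the same 300 bases. It was in 60 of 778 raised promoters (7.71%) and 39 of 650 lowered ones, and in 9.03% of those raised and 11.3% of those lowered by over 1 on the log2 scale. The promoters of AZU1 and PRTN3, which were not called, held it too, and RNASE2 and RNASE3, related genes with a like stretch, are 2 of the 6. Those 2 sites and that of MS4A3 are shown. Each is 30 bases on the strand of the gene in GRCh38, with the match in capitals and the position of its first letter counted from the annotated start.
RNASE2, from position −145 (chr14:20955331-20955360): aaaaaggatgaTTGCACAAgtggactatgt
RNASE3, from position −94 (chr14:20891280-20891309): aaaaaggatgaTTGCACAAgtggaccatgt
MS4A3, from position −68 (chr11:60056586-60056615): cctctaaagtgTTGCATAAggcaaagataa
A match of letters is a description and not a bound site. PU.1 is a second factor of these cells, and its pattern GAGGAAGT, read on both strands, was in 47 of 778 raised promoters (6.04%), 20 of 650 lowered (3.08%) and 2.64% of all. The E box CACGTG was in 14.8% of lowered, 9.64% of raised and 10.7% of all promoters.

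Genes of the amino acid response, which the transcription factor ATF4 switches on when amino acids or charged tRNAs are short, fell as a group. Of 30 tested genes 20 (66.7%) fell and 1 rose, with a median log2 fold change of −0.57, and 22 fell without DMSO replicate 2. The fit of the 6 libraries alone gave 12. ASNS, asparagine synthetase, was at 109, 123 and 105 CPM in DMSO and 57.9, 53.9 and 54.3 CPM in SGC0946 (−1.02, SE 0.12, adjusted p = 3.11e-07). PSAT1, of serine synthesis, went from 216, 155 and 224 CPM to 106, 93.4 and 98.5 CPM (−1.003, SE 0.10, adjusted p = 3.83e-08). PSPH, the last enzyme of that pathway, went from 48.6, 49.1 and 51.5 CPM to 29.2, 31.4 and 26.4 CPM (−0.78, SE 0.12, adjusted p = 4.76e-05). No library overlapped in these genes. GPT2, a mitochondrial alanine transaminase, fell from 129 ± 18.4 to 69.3 ± 5.35 CPM (−0.90, SE 0.11, adjusted p = 8.75e-07). ATF4 itself fell from 1177 ± 216 to 851 ± 33.0 CPM (−0.47, SE 0.08, adjusted p = 2.80e-04). Not all members followed. SLC1A4, a neutral amino acid transporter, was called higher at 77.3 ± 15.5 and 96.0 ± 6.06 CPM (0.31, adjusted p = 0.0447), a call lost without DMSO replicate 1 (adjusted p = 0.0591) or 2 (0.271) or SGC0946 replicate 1 (0.149), 2 (0.121) or 3 (0.0504). The cystine transporter gene SLC7A11 was at 41.6 ± 2.64 and 49.4 ± 4.72 CPM (adjusted p = 0.111), and DDIT3 at 4.63 ± 1.64 and 5.91 ± 1.07 CPM (adjusted p = 0.572).

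The letters TGATGNAA, the composite pattern of ATF4 with a C/EBP partner, were in the 300-base promoters of 8 of 29 genes of this list (27.6%), 4 of the 19 that fell (21.1%) and 159 of 10267 tested genes (1.55%), on either strand. It cannot match the same 8 letters as the C/EBP pattern above. The 4 lowered genes with it and the raised SLC1A4 are shown, since a match was found on both sides. The pattern was also in AARS1, ATF3 and SLC7A11, which were not called. Within the list its share was thus no higher in the genes that fell.
ASNS, lowered, from position −68 (chr7:97872458-97872487): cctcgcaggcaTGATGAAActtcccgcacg
GARS1, lowered, from position −33 (chr7:30594834-30594863): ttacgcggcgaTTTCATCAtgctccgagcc
CHAC1, lowered, from position −209 (chr15:40953251-40953280): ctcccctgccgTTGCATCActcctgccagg
SLC7A1, lowered, from position 8 after the start (chr13:29595663-29595692): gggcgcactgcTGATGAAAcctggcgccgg
SLC1A4, raised, from position −7 (chr2:64989381-64989410): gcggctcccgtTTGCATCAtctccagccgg
The positions refer to the first capital letter, and each of these stretches overlapped an annotated exon of some transcript. GARS1, a tRNA synthetase gene, fell from 145 ± 14.4 to 94.6 ± 10.1 CPM (−0.61, SE 0.10, adjusted p = 1.20e-04), CHAC1, which degrades glutathione, from 9.26 ± 1.58 to 4.66 ± 0.699 CPM (−0.999, SE 0.27, adjusted p = 0.0129), a call lost without DMSO replicate 3 (adjusted p = 0.0523) or SGC0946 replicate 3 (0.0757). SLC7A1, an arginine transporter, fell from 122 ± 2.96 to 96.9 ± 1.71 CPM (−0.33, SE 0.08, adjusted p = 0.00772).

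Of 35 tested lysosomal genes 14 rose, none fell and 21 were not called, with a median of 0.34, where 7.23% of all genes rose. LIPA, the acid lipase, went from 47.9, 49.5 and 50.8 CPM to 74.9, 74.2 and 75.1 CPM (0.60, SE 0.08, adjusted p = 3.32e-06), without overlap. Few genes of the cell cycle were called. Of 31 tested S phase genes 4 fell, of 31 mitosis genes 1 fell, and none rose in either list, with medians of −0.16 and 0.0022, where 5.77% of all genes fell. The S phase count was 2 without SGC0946 replicate 2 and 1 without SGC0946 replicate 3, and 3 and 2 mitosis genes were called higher without DMSO replicates 1 and 2. RRM2 lost its call in 5 of 6 fits without 1 library (adjusted p up to 0.107, without SGC0946 replicate 2), MCM10 without DMSO replicate 1 (0.0728) or SGC0946 replicate 3 (0.112), and E2F1 without SGC0946 replicate 2 (0.108) or 3 (0.0917). BUB1, the mitosis gene called lower, lost its call in 4 of 6 (up to 0.2, without SGC0946 replicate 3). CDC6, which loads the replicative helicase, was at 65.4, 71.6 and 62.4 CPM in DMSO and 47.8, 42.5 and 39.6 CPM in SGC0946 (−0.62, SE 0.10, adjusted p = 4.26e-05). Among 12 tested G1 regulators CCND2 and CDKN2D rose and CDK6, CDKN1A, CDKN1B and CDKN2C fell. These were 16.7% and 33.3% of the list, beside 7.23% and 5.77% of all genes. The call for CDKN2D was lost without DMSO replicate 1 (adjusted p = 0.0577) or 2 (0.19) or SGC0946 replicate 2 (0.115) or 3 (0.203), and that for CDKN1A without DMSO replicate 2 (adjusted p = 0.22) or SGC0946 replicate 1 (0.055), 2 (0.0744) or 3 (0.0806). CDKN1B, which encodes p27, fell from 25.2, 27.9 and 28.6 CPM to 17.2, 18.6 and 18.2 CPM (−0.60, SE 0.13, adjusted p = 0.00294).

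Of 29 tested genes of ribosome biogenesis and growth 6 fell, with a median of −0.24, where 5.77% of all genes fell. The count was 3 without SGC0946 replicate 3, 1 with only the libraries compared and 10 with library size alone. LDHA, lactate dehydrogenase, went from 851, 1302 and 1113 CPM to 580.3, 646 and 665 CPM (−0.79, SE 0.12, adjusted p = 2.52e-05). MYC was at 96.7 ± 23.5 and 74.3 ± 14.6 CPM and did not pass (adjusted p = 0.108). Of 81 ribosomal protein genes 20 (24.7%) rose and 1 fell, beside 7.23% and 5.77% of all genes. They were led by RPS18, from 5298, 3295 and 5419 CPM to 7395, 7174 and 7342 CPM (0.64, SE 0.11, adjusted p = 9.71e-05), where DMSO replicate 2 was lowest. The count of raised ribosomal protein genes was 0 in the fit of the 6 libraries alone, 9 with library size alone, and 13, 14 and 13 without SGC0946 replicates 1, 2 and 3. The lists that gave few calls were interferon response (3 of 17 higher), apoptosis (2 of 17 higher, 1 lower), signalling feedback (2 of 19 higher, 1 lower), stem and progenitor genes (2 of 8 higher, 1 lower), mitochondrial transcripts (2 of 13 higher), MHC class II (1 of 4 higher) and sterol efflux (1 of 7 higher), where 7.23% of all genes rose and 5.77% fell. The higher count was 0 for apoptosis without DMSO replicate 1 or SGC0946 replicate 3, for mitochondrial transcripts without DMSO replicate 3 or SGC0946 replicate 1 or 2, for MHC class II without DMSO replicate 3 or SGC0946 replicate 1, and for sterol efflux without DMSO replicate 1 or 3 or SGC0946 replicate 3. Of 23 tested genes of cholesterol synthesis edgeR and DESeq2 each called 0, and 2 were lower at an unadjusted p below 0.05. The edgeR count was 2 lower without DMSO replicate 1 or 2 and 1 lower without SGC0946 replicate 3, HMGCS1 among them without DMSO replicate 2 (−0.73, adjusted p = 0.0319). Of 176 solute carriers 16 rose (9.09%) and 20 fell (11.4%), beside 7.23% and 5.77% of all genes. Without SGC0946 replicate 3 the counts were 9 and 15, and with only the libraries compared 4 and 8. SLC44A1, a choline transporter, rose from 418, 216 and 427 CPM to 742, 699 and 849 CPM (1.11, SE 0.15, adjusted p = 3.04e-06). SLC16A1, a lactate and pyruvate transporter, fell from 161, 175 and 163 CPM to 110.5, 118 and 101 CPM (−0.60, SE 0.07, adjusted p = 1.14e-06). The DUSP6 gene, a brake on MAP kinase, rose from 44.3 ± 5.32 to 98.6 ± 11.2 CPM (1.16, SE 0.17, adjusted p = 2.51e-05), and the interferon-induced IFI6 from 5.78 ± 1.82 to 22.9 ± 3.19 CPM (1.98, SE 0.23, adjusted p = 3.62e-07).

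**Figure D3:**
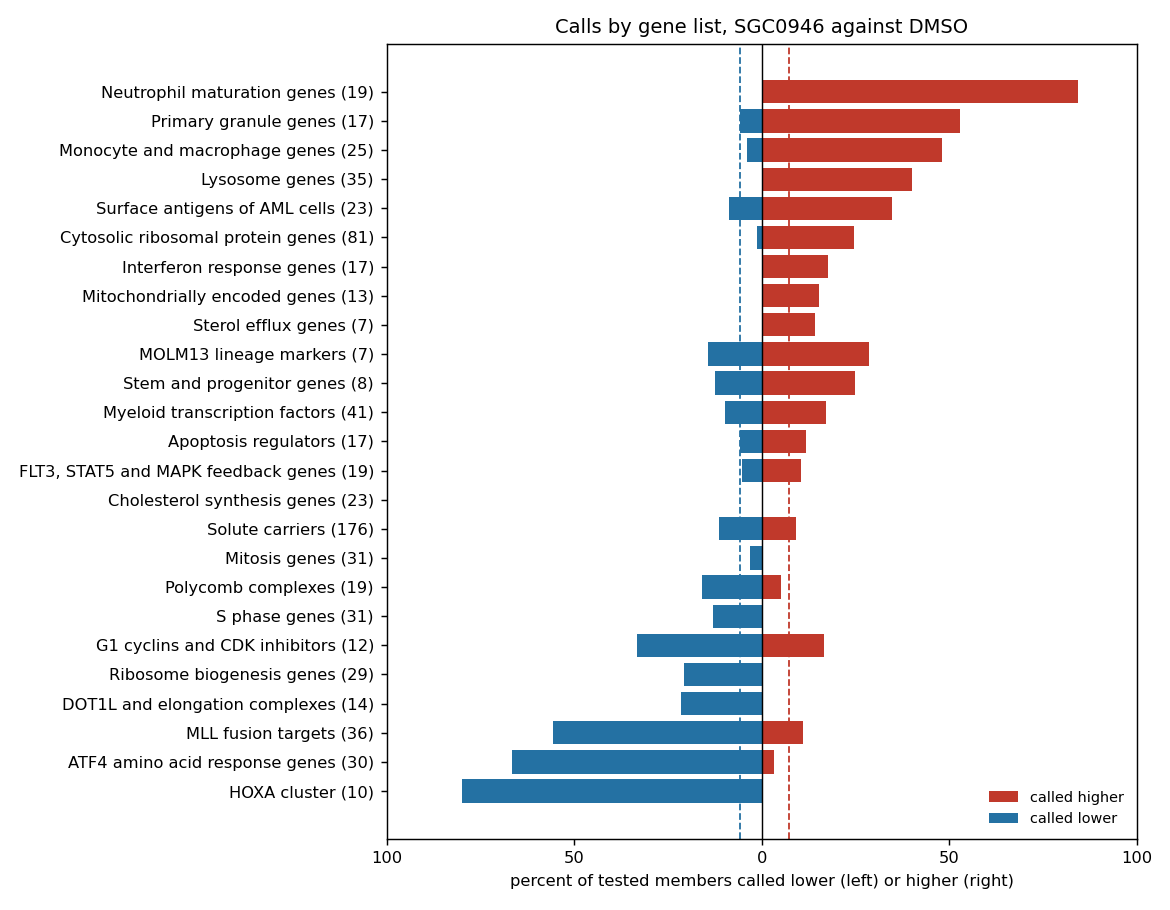
Share of the tested members of each gene list called lower (left, blue) or higher (right, red) with SGC0946 against DMSO, in percent, with the number tested in brackets. Dashed lines mark the shares of all 12140 genes, 5.77% lower and 7.23% higher; the HOXA, ATF4 and MLL fusion target lists extend furthest to the left and the neutrophil, primary granule and monocyte lists furthest to the right.

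To see where DOT1Li differed from MENi, SGC0946 was set against VTP50469 in the same control cells. Time differed with the drug (72 h and 48 h), so drug, dose and time cannot be told apart. Between these libraries 171 genes differed (1.41%), 124 (1.02%) higher and 47 (0.387%) lower with SGC0946. Of the 878 genes that SGC0946 raised against DMSO 51 differed between the drugs, 42 higher and 9 lower with SGC0946, and of the 700 that it lowered 41 differed, 25 higher and 16 lower. MEIS1, ZNF521 and MEF2C, of the MLL fusion target list, and EFNA5 were higher with SGC0946 than with VTP50469. MEIS1, at 2.99, 5.45 and 4.38 CPM with SGC0946, was at 0.579, 0.540 and 1.58 CPM with VTP50469 (difference 2.20, SE 0.36, adjusted p = 6.82e-04). ZNF521 was at 20.2, 18.8 and 19.6 CPM and 3.28, 3.24 and 4.73 CPM (2.37, SE 0.19, adjusted p = 6.83e-09). MEF2C was at 54.9, 46.4 and 54.96 CPM and 22.97, 26.1 and 25.03 CPM (1.08, SE 0.10, adjusted p = 1.33e-07), and EFNA5 at 7.29, 8.27 and 5.95 CPM and 1.74, 2.34 and 1.93 CPM (1.82, SE 0.28, adjusted p = 2.04e-04). These 4 genes were below DMSO with either drug. HOXA9 went the other way. HOXA9 was at 29.2, 37.4 and 38.5 CPM with SGC0946 and 53.1, 52.8 and 56.01 CPM with VTP50469 (−0.62, SE 0.11, adjusted p = 0.00183). Of the 10 tested genes of the cluster 3 differed between the drugs, while HOXA10 (−0.44, adjusted p = 0.213) and HOXA11 (−0.52, adjusted p = 0.422) did not pass. Over the 10 genes the median against DMSO was −1.29 with SGC0946 and −0.56 with VTP50469. HOXA13 was at 2.62, 3.01 and 3.15 CPM with SGC0946 and 5.02, 7.03 and 7.53 CPM with VTP50469 (−1.15, adjusted p = 0.0162), a call lost without SGC0946 replicate 1 (adjusted p = 0.0837), 2 (0.0599) or 3 (0.0514) or VTP50469 replicate 2 (0.0716) or 3 (0.103).

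CCND2, cyclin D2, moved to opposite sides of DMSO with the drugs. CCND2 was at 23.2, 22.5 and 28.7 CPM in DMSO, 31.6, 34.6 and 33.8 CPM in SGC0946 and 9.07, 10.1 and 11.7 CPM in VTP50469, 3 groups without overlap (SGC0946 minus VTP50469 1.69, SE 0.11, adjusted p = 5.41e-11). BCOR was at 36.6, 44.2 and 38.7 CPM with SGC0946 and 60.6, 60.2 and 61.3 CPM with VTP50469 (−0.61, SE 0.09, adjusted p = 2.04e-04), where DMSO had 45.3 to 56.03 CPM and the difference of VTP50469 from DMSO did not pass (adjusted p = 0.112). Of the raised myeloid genes, MMP25 (1.20) and FGL2 (1.03) were higher with SGC0946, and RNASE2 (−0.41), CYBB (−0.45) and AIF1 (−0.36) higher with VTP50469. The difference in FGL2 was lost without SGC0946 replicate 2 (adjusted p = 0.0744) or VTP50469 replicate 1 (0.0746) or 2 (0.0609), and that in CYBB and AIF1 in 4 of 6 fits with 1 library removed, with adjusted p up to 0.0919 (without VTP50469 replicate 1) and 0.103 (without VTP50469 replicate 3). SLPI, MPO, MS4A3 and CEBPE did not differ past the threshold (log2 differences of −0.13, SE 0.09, −0.09, SE 0.10, 0.00, SE 0.12, and 0.15, SE 0.20), which does not show that the drugs acted alike on them. SAMHD1, a nucleotide hydrolase, was called higher with SGC0946 (0.41, adjusted p = 0.0211), a call lost in 5 of 6 fits with 1 library removed (adjusted p 0.0554 to 0.11, the highest without SGC0946 replicate 3), and the call for EMB was lost without VTP50469 replicate 1 (0.0552).

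**Figure D4:**
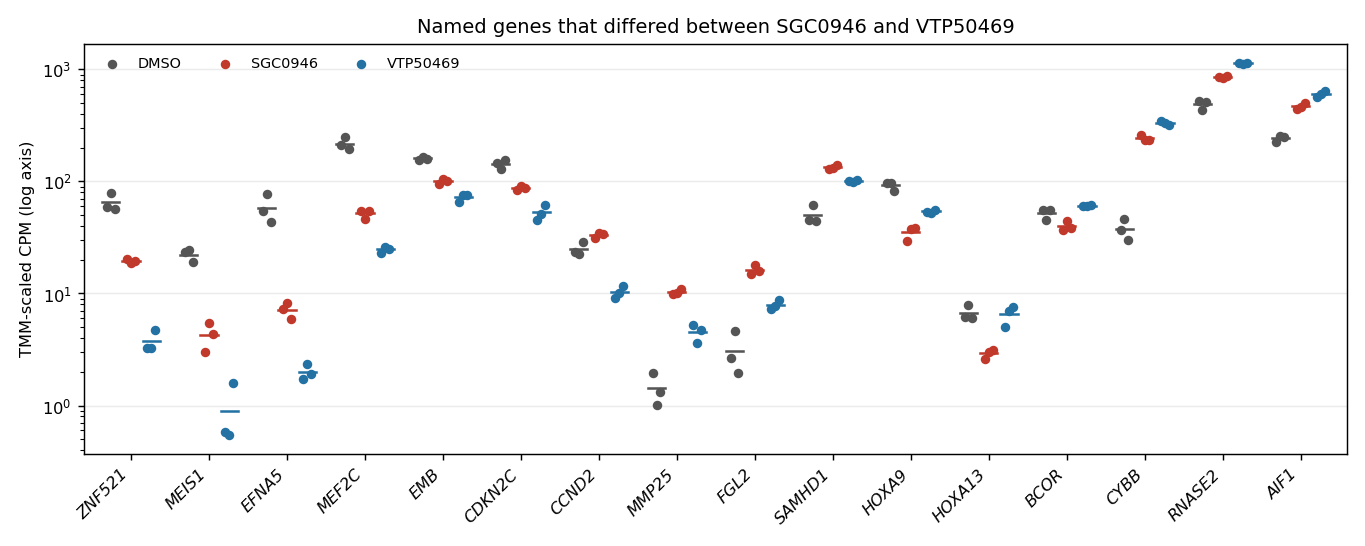
Levels of 16 genes that differed between SGC0946 and VTP50469 in MOLM13 control cells, as TMM-scaled CPM on a log axis, with 3 libraries in DMSO (grey), SGC0946 (red) and VTP50469 (blue) and bars for means. VTP50469 means lie below SGC0946 means for the genes from ZNF521 to SAMHD1 and above them from HOXA9 to AIF1; CCND2 lies above DMSO with SGC0946, at 31.6 to 34.6 CPM, and below it with VTP50469, at 9.07 to 11.7 CPM.

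MV4;11 control cells were used to see how far the response was shared by a second MLL-fusion line, with no library in common. SGC0946 changed 1373 of 11252 genes (12.2%) there, 722 (6.42%) upwards and 651 (5.79%) downwards. Among 10354 genes tested in both lines, 745 rose in MOLM13 and 638 in MV4;11, and the 218 that rose in both were 29.3% and 34.2% of these lists, where 6.16% of all such genes rose in MV4;11. The 182 genes that fell in both were 28.1% of the 647 in MOLM13 and 28.3% of the 642 in MV4;11, where 6.20% fell. Opposite calls were 17 for genes raised and 18 for genes lowered in MOLM13. The median log2 fold change in MV4;11 was 0.35 over the genes raised and −0.22 over those lowered in MOLM13. In the MV4;11 libraries 20 genes held 43.8% to 53.2% of the counts, so scaling bears more on that line, and library size alone gave 604 upwards and 113 downwards calls there.

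By list, 16 of 33 MLL fusion targets fell in MV4;11, 16 of 28 amino acid response genes fell, 13 of 33 lysosomal genes rose, 9 of 21 monocyte genes rose and 8 of 15 neutrophil maturation genes rose. Of 7 tested HOXA cluster genes 3 fell. Some lists went otherwise than in MOLM13. Of 23 cholesterol synthesis genes 8 fell, of 7 sterol efflux genes 3 fell and 1 rose, and of 13 mitochondrial transcripts 3 fell. Of 14 genes of DOT1L and the elongation complexes 3 rose and 1 fell. Of all genes tested in that line 6.42% rose and 5.79% fell. CLEC12A went from 11.2 ± 2.01 to 52.5 ± 2.49 CPM in MV4;11 (SD, n = 3; 2.23, SE 0.15, adjusted p = 3.10e-11), MEF2C from 139.9 ± 3.07 to 48.9 ± 2.39 CPM (−1.52, SE 0.13, adjusted p = 1.02e-09) and GPT2 from 106 ± 7.12 to 41.5 ± 3.62 CPM (−1.35, SE 0.12, adjusted p = 1.14e-09). Of 94 named genes called in MOLM13 and tested in MV4;11, 83 had the same sign there, 54 were called in that direction and 0 in the other by the same edgeR test. Of the lowered run on chromosome 10, MIR1915HG and SKIDA1 were not tested in MV4;11, and DNAJC1 (0.62, adjusted p = 0.0785) and COMMD3 (0.29, adjusted p = 0.242) did not pass. BMI1 was at 7.97 ± 0.361 and 8.75 ± 1.15 CPM there (0.13, adjusted p = 0.768), and SHOX2 at 16.7 ± 1.68 and 23.8 ± 3.75 CPM (0.51, adjusted p = 0.0604). MPO was at 10.2 ± 1.09 and 13.1 ± 1.27 CPM (0.37, adjusted p = 0.216), and CEBPD at 49.6 ± 5.09 and 43.7 ± 2.45 CPM (−0.19, adjusted p = 0.358). Whether the responses of the lines differ in these genes was not tested, since the tables were scaled and fitted apart.

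**Figure D5:**
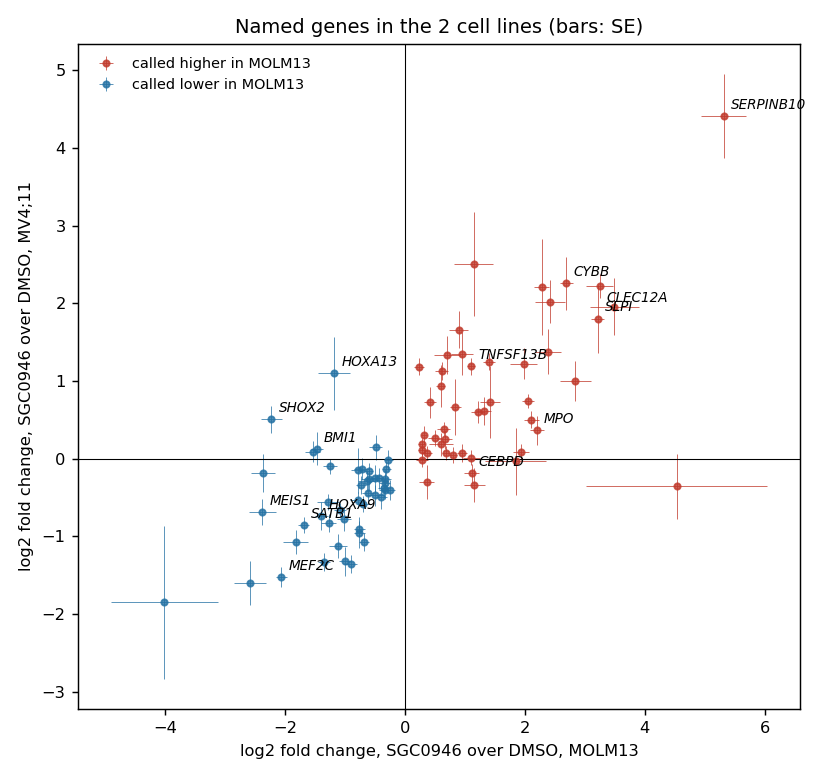
Log2 fold changes of SGC0946 over DMSO in MOLM13 (x axis) and MV4;11 (y axis) control cells for 91 named genes. These genes were called in MOLM13, tested in both lines and had more than 3 counts in both MOLM13 groups. Red points rose and blue points fell in MOLM13, and bars are SE derived from the F test. Most points lie in the lower left and upper right, as CLEC12A (3.25 and 2.23) and MEF2C (−2.06 and −1.52) do, and SHOX2 (−2.22 and 0.51) and BMI1 (−1.47 and 0.13) lie above 0 in MV4;11.

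PCGF1 KO cells, labelled as edited for a gene that encodes a subunit of the Polycomb complex PRC1.1, were given SGC0946 alongside the control cells. PCGF1 was at 5.39 ± 2.43 CPM in DMSO and 5.71 ± 1.09 CPM in SGC0946 there (SD, n = 3), beside 7.74 ± 0.626 and 8.72 ± 1.28 CPM in the control, and a transcript level does not show whether the protein was lost. The response differed between knockout and control in 79 genes (0.651%), with 27 (0.222%) higher and 52 (0.428%) lower in the knockout.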

How the data were processed

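RNA was sequenced from the 3′ end. Per the labels and the study's methods, the authors trimmed reads with bbmap and aligned them with STAR to GRCh38 (hg38), and deposited raw counts per gene for each MOLM13 library. The methods name STAR's own gene counts, while the tables end with totals in the form that HTSeq writes, so which of them made the counts is not settled. The strand setting is not given in the sources used here. The labels list mouse as the organism of these human cells, and the tables hold human gene identifiers. Reads naming no gene (36.8% to 48.6% in the 6 libraries) were left out. All 27 MOLM13 libraries (9 groups of 3) entered 1 model, namely control, PCGF1 KO and BCOR KO cells, each in DMSO, SGC0946 and VTP50469. Another model took 18 MV4;11 libraries of control and PCGF1 KO cells, since 30 MV4;11 columns were not used. The MV4;11 control columns were taken to be those named Safe3, a match inferred from column names. A gene was tested where 2 or more libraries reached 2 CPM, with edgeR 4.0.16 (R 4.3.3), TMM scaling, the quasi-likelihood test and Benjamini-Hochberg adjustment, at a threshold of 0.05, in a pipeline tested on simulated data. CPM are TMM-scaled. SE is the size of the log2 fold change divided by the square root of the F statistic of its test. It was thus derived from the test and not estimated apart from it. DESeq2 1.42.0 and limma 3.58.1 served as alternatives.

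Named genes included the targets of the drug and genes the study names. In each direction they also included the 12 lowest adjusted p with a log2 change past 1, at least 10 CPM and no overlap between groups. Added were the 6 largest changes in each direction with at least 5 CPM and at most 1 library overlapping. Up to 4 members of each gene list completed them. Overlap was thus limited by the choice for many named genes, and its absence in them gives no independent support. Other genes were named after their values were seen. The members and lists were chosen with earlier results of these data known. Promoters were those of MANE Select transcripts in GENCODE 44 on GRCh38. Replicate numbers were not taken as pairs. Deviations from the group means correlated at 0.003, 0.133 and 0.123 between same-numbered DMSO and SGC0946 libraries. Between differently numbered ones they correlated at −0.142 to 0.063. Libraries of the same number nevertheless shared a pattern. Mitochondrial transcripts fell from replicate 1 to 2 to 3 in every MOLM13 group. They made up 7.48%, 7.36% and 6.26% of counts in control DMSO and 8.31%, 8.27% and 6.92% in control SGC0946. The main fit did not model this. Its source was not tested, and counts with a replicate block are given below. Some items withheld for evaluation are not reported here.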

Additional observations from a re-analysis of the deposited data

Results flagged for a closer look

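The response to SGC0946 was also measured in cells labelled PCGF1 KO, whose PCGF1 transcript stood at 5.39 CPM in DMSO (7.74 CPM in the control), and the difference of both responses was tested as an interaction term in edgeR's quasi-likelihood fit. Over all genes 79 (0.651%) differed, 27 (0.222%) with a higher and 52 (0.428%) with a lower response in the knockout. Of the 124 named genes 26 differed. They were chosen by the control response, which enters the difference, so the count gives no independent support.

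Among lowered genes the difference (knockout minus control, log2) was 2.50 for MIR1915HG, 1.35 for EFNA5, 1.34 for MEIS1, 1.27 for SOCS2, 1.12 for SATB1, 0.96 for BMI1, 0.93 for HOXA9, 0.92 for HOXA10, 0.84 for MEF2C and 0.65 for SLC39A4, all smaller decreases in the knockout. Among raised genes it was −2.25 for MMP25, −2.04 for SLPI, −1.89 for CEBPE, −1.61 for MIR124-1HG, −1.22 for ANXA1, −1.21 for CHI3L1, −1.16 for MS4A3, −0.85 for MPO, −0.83 for NFE2, −0.78 for PRAM1, −0.77 for CEBPD, −0.69 for CYBB and −0.60 for RNASE2. For some of the raised genes the smaller response in the knockout began from a higher DMSO level. SLPI went from 42.7 to 96.4 CPM in the knockout and from 8.06 to 75.3 CPM in the control, CHI3L1 from 319.7 to 575 and from 85.9 to 356 CPM, ANXA1 from 31.7 to 71.0 and from 13.1 to 68.8 CPM, and RNASE2 from 1087 to 1246 and from 488 to 849 CPM. For CCND2 (−0.65), S100A9 (−6.28) and S100A8 (−4.75) it was negative as well, and the calgranulins rest on 1 and 3 counts in control DMSO, so their fitted differences are no bound.

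Calls depended on single libraries for some genes. Over 12 fits that each left out 1 library, the call was lost in 10 for PRAM1 (adjusted p up to 0.174, without PCGF1 KO DMSO replicate 3), 10 for ANXA1 (0.124, without control SGC0946 replicate 1), 9 for CEBPD (0.13, without PCGF1 KO SGC0946 replicate 1), 7 for MEIS1 (0.124, without control SGC0946 replicate 1), 5 for CYBB, 4 for SOCS2, 3 for HOXA10 and 1 each for CEBPE, NFE2 and SLC39A4.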

How the results depend on the processing

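The count of genes changed by SGC0946 against DMSO rested on the fit. With only the libraries compared, 505 genes were called (345 higher, 160 lower). Leaving out 1 library gave 1044 to 1686, with 1044 (633 higher, 411 lower) without SGC0946 replicate 3. Scaling by library size alone gave 1651 and moved the share of higher calls from 55.6% to 43.9%. DESeq2 called 1517, limma voom 1555 and no filter 1485. With the replicate block, the count was 1932 (1036 higher, 896 lower) against DMSO, 205 against VTP50469, 104 for the interaction with PCGF1 KO and 1349 in MV4;11, although the numbers were not taken as pairs. SGC0946 against VTP50469 gave 109 to 129 with 1 library left out. The interaction gave 191 without a filter, 120 at an adjusted p under 0.1 with a log2 change past 0.5, and 56 to 84 with 1 library left out. MV4;11 gave 717 with library size alone, 2058 with only the libraries compared and 819 to 984 with 1 library left out. Of 1852 values for named genes 1706 kept their direction and side of the threshold, 129 lost and 9 gained a call, and 8 reversed, all in uncalled genes. ZEB2 reversed to −0.0211 with library size alone and to −0.0296, −0.0020 and −0.0428 without DMSO replicates 2 and 3 and SGC0946 replicate 2, within −0.0428 to 0.0909 over the fits without 1 library, and PAX5, at 1 count in each group, to −0.0099 with library size alone and to −0.4306, −0.4814 and −1.8408 without DMSO replicates 1 and 3 and SGC0946 replicate 3, within −1.8408 to 1.8723. The cause was not tested. Of 108 called named genes 76 kept call and direction under every alternative run. Lists moved too: with only the libraries compared, 12 ATF4 genes fell, 9 lysosomal and 11 neutrophil genes rose, and 0 ribosomal protein genes rose. At 5127116 to 6027321 counts per library, 3 counts came to 0.498 to 0.585 CPM, and differences in genes near that level in both groups were not detectable.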
